A study of Mus musculus with 8 samples.

Results

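The protein part of the cytosolic ribosome was followed through 83 genes of the tibialis anterior, a hindlimb muscle made mostly of fast fibres. They were chosen by name, as protein-coding genes whose symbol starts with Rpl or Rps and a digit, plus Rplp0, Rplp1, Rplp2 and Rpsa. Kinases such as the Rps6k genes, Rps19bp1, Rpl7l1 and pseudogenes were left out. These are 83 of the 48328 genes in the table, 21608 of which are protein-coding, and the naming rule uses no measured value. There are 33 proteins of the small subunit, 47 of the large subunit and 3 of the stalk. These counts are of the genes analysed here and do not cover every known protein of the ribosome. They lie on 19 chromosomes, with 14 genes on chromosome 7 and 4 (Rpl10, Rpl36a, Rpl39 and Rps4x) on the X chromosome.

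RNA came from 8 C57BL/6J mice aged 24 months. In 4 of them, named K320E-skm, skeletal muscle makes a dominant mutant Twinkle, the helicase that unwinds mitochondrial DNA for its copying. The other 4 were wild-type for it, and each genotype has 2 libraries labelled male and 2 labelled female. The sources used here do not give the promoter that drives the mutant protein. The labels do not describe the origin of each sample further, so a p-value here measures only how these 8 libraries spread, which may be partly technical.

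Each cytosolic ribosome has a small subunit, which reads the messenger RNA, and a large subunit, which forms the peptide bonds. The stalk is a flexible arm of the large subunit that recruits the elongation factors. Most ribosomal proteins are needed in equal amounts. Many messengers of ribosomal proteins begin with a C followed by a run of pyrimidines, the 5′ terminal oligopyrimidine tract. Through it, mTOR and the RNA-binding protein Larp1 control how much of these messengers is translated. Rpl3l is a paralog known from muscle, where it can take the place of Rpl3 in the ribosomes of mature fibres.

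The starts of several of these genes show the tract in the reference genome. A selection is printed here, with 10 bases before the RefSeq start and 20 bases from it on (GRCm38.p6, 5′ to 3′, minus or plus strand as given). It includes Rps16 and Rpl3l, whose windows lack the tract. Capitals mark the start and the unbroken run of C and T from it.
Rpl15, chr14:18270967-18270996, minus strand: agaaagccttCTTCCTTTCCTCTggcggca
Rpl35, chr2:39005112-39005141, minus strand: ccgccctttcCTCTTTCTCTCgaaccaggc
Rps10, chr17:27635225-27635254, minus strand: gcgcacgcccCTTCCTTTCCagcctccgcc
Rpl28, chr7:4792955-4792984, plus strand: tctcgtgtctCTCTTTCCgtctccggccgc
Rps27, chr3:90213629-90213658, minus strand: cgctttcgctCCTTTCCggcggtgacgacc
Rps27rt, chr9:114982720-114982749, minus strand: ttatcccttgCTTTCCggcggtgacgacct
Rpl14, chr9:120571507-120571536, plus strand: ggccctctctCTTCTCgctgagcgccgcca
Rps16, chr7:28350679-28350708, plus strand: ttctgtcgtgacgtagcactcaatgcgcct
Rpl3l, chr17:24727816-24727845, plus strand: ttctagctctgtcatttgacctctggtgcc

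The run is longest in Rpl15, with 13 bases, and is missing in the windows of Rps16 and Rpl3l. A start was counted as having the pattern when its base is a C and at least 4 bases of C or T follow it on the strand of the gene. That held for 14 of the 63 members with an entry in the RefSeq table, or 22.2%, against 3.01% of all 27025 genes of the table and 3.11% of the 7825 tested genes with an entry. The annotated start can lie a few bases from the start used in this muscle, so a missing run says only that these letters are not in this window.

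Levels are FPKM, fragments scaled by transcript length and by the mapped fragments of the library, a scaling meant for comparison between genes. Most ribosomal protein genes were among the most abundant messengers of the muscle, with 77 of the 83 within the 500 protein-coding genes of highest mean level. The median of their mean level over the 8 libraries was 137.7 FPKM, against 4.47 FPKM over the 10521 tested genes, those at 1 FPKM or more in at least 4 libraries. In all, 81 members passed this filter, 59 of them with a mean of 100 FPKM or more, 18 between 50 and 100 and 4 under 50. The tests ran on log2(FPKM + 1).

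**Figure D1:**
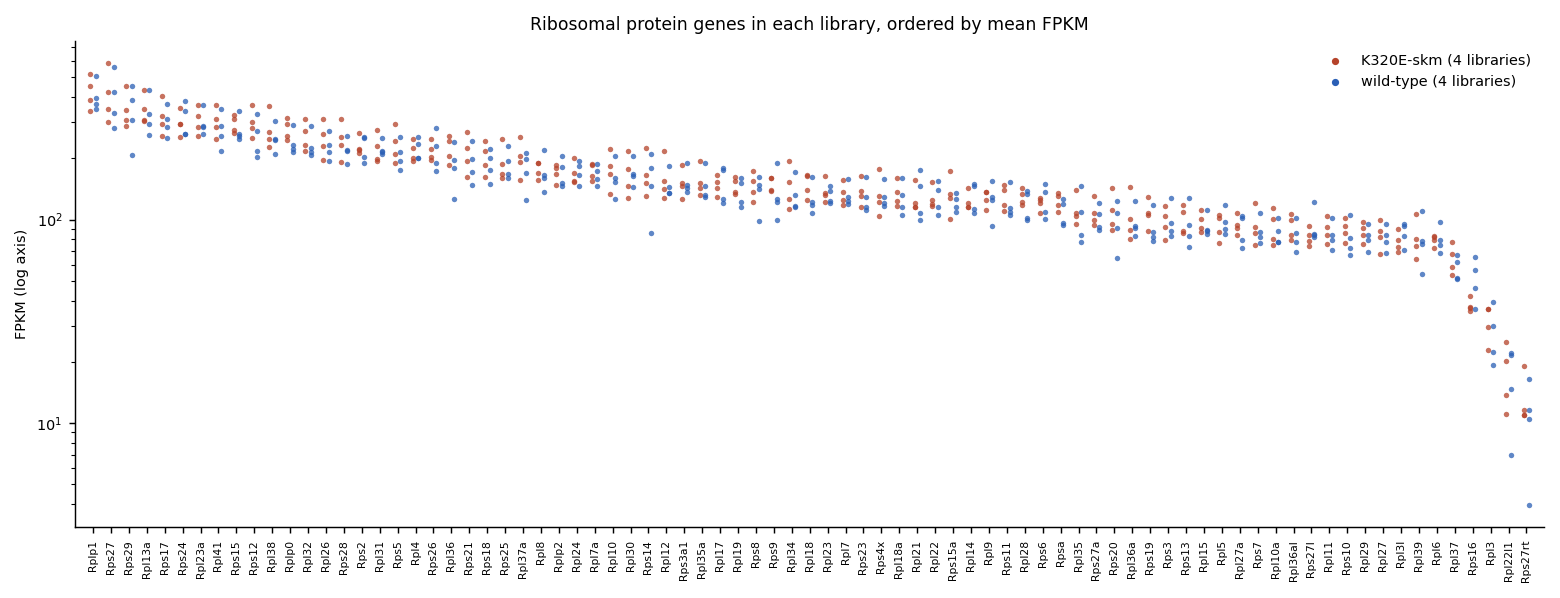
Each of the 81 tested members has its own place on the x axis, ordered by mean level; each point is 1 library, and the y axis is FPKM on a log scale. The means fall from 415 FPKM in Rplp1 to 61.1 FPKM in Rpl37, and those of Rps16, Rpl3, Rpl22l1 and Rps27rt lie below 50 FPKM. The points of the genotypes overlap at every gene.

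The highest levels belonged to Rplp1, a stalk protein, and to Rps27 and Rps29, small proteins of the small subunit, with means of 415, 408 and 343 FPKM. Their annotated transcripts are short, at 499, 345 and 390 bases, where tested members run from 345 to 5179 bases. How far this length affects their FPKM was not tested. Rplp1 was at 519, 454, 385 and 341 FPKM across K320E-skm 1 to 4 and at 506, 350, 393 and 370 FPKM across wild-type 1 to 4. Rps29 was at 451, 344, 307 and 288 FPKM in the K320E-skm and at 453, 207, 387 and 310 FPKM in the wild-type libraries. In both genes the first library of each genotype was the highest, and the groups overlapped. At the low end were Rpl3, Rpl22l1 and Rps27rt, with means of 29.6, 16.9 and 11.9 FPKM. A pair of paralogs did not pass the filter. Rpl10l, a copy of Rpl10, was listed at 0 in all 8 libraries, which in this kind of table can be a failed estimate, and Rpl39l, a copy of Rpl39, averaged 0.0737 FPKM with wild-type 1 listed at 0.

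Of the 80 pairs of neighbours in this order, 4 differed in their mean by more than the larger SD over the 8 libraries, all at the low end (Rpl6 above Rpl37, Rpl37 above Rps16, Rps16 above Rpl3 and Rpl3 above Rpl22l1). The coefficient of variation within wild-type muscle had a median of 17.2% over the members, from 8.95% in Rpl31 to 48.5% in Rps27rt, against 19.7% over all tested genes. Some of these levels are uncertain. Exons of 16 members overlap another protein-coding gene, as Rpl5 does with Fam69a and Rpl18 with Sphk2. For 56 members the table has pseudogenes named after them, with -ps in the symbol. Reads can be divided among such genes. The 273 rows with -ps in the symbol summed to 110 to 171 FPKM per library, small beside the members. Pseudogenes under other names were not counted, so the full share of pseudogenes is not given here. Within the bounds of 29 members, on the same strand, lie 57 genes of small nucleolar or small Cajal body RNAs. Some of these overlap annotated exons.

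Pearson's r between libraries, on log2(FPKM + 1) across all tested genes, was 0.940 to 0.970, and no 2 libraries were identical. Twnk, which encodes Twinkle, was at 3.82 to 5.06 FPKM in the K320E-skm group and at 2.16 to 2.70 FPKM in wild-type muscle. Mature fibre markers summed to 30617 to 40698 FPKM in the first group and to 39368 to 44849 FPKM in the second, with Myh4 listed at 0 in 4 libraries (K320E-skm 2, 3 and 4, and wild-type 4). Such a 0 can be a failed estimate, so the sums of these libraries are not directly comparable with the rest. Transcripts of the mitochondrial genome took 53.8 to 59.8% of all FPKM in the K320E-skm group and 44.0 to 56.3% in wild-type libraries. FPKM are relative to all mapped fragments, so other levels can move with the mitochondrial part of those fragments. A share of FPKM does not give that part, since FPKM are divided by transcript length, and its effect was not tested. The library K320E-skm 4, labelled male, had Xist at 10.2 FPKM and the Y-linked Ddx3y at 0.0117 FPKM, which goes against its label.

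The first comparison asked how the ribosomal protein genes of K320E-skm muscle differ from those of wild-type muscle. None of the 81 tested members passed the threshold of limma (Benjamini-Hochberg adjusted p under 0.05 over all tested genes), where 0.019% of all tested genes did. The smallest adjusted p of a member was 0.378, for Rps16. At an unadjusted limma p under 0.05 there was 1 member, Rps16, which was lower. That is 1.23% of the members, against 13.1% of all tested genes, of which 1.12% of all were higher and 12% lower. In no member did the genotypes lie apart without overlap, against 9.92% of all tested genes (0.333% higher and 9.59% lower).

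More members lay above 0 than below, and more of all genes below than above. The median log2 fold change, K320E-skm minus wild-type, was 0.08 over the members, with 63 above 0 and 18 below, and −0.14 over all tested genes, of which 20.5% were above 0. The direction of the median gene depends on how libraries are scaled. After median-ratio rescaling, which sets the typical gene equal in all libraries, the median was 0.26 for the members, with 80 of 81 above 0, and 0.00 for all genes, with 50.6% above 0. Rps16 was the exception. At an unadjusted p under 0.05 limma then had 10 members, all higher, or 12.3% of the members, against 5.19% of all genes higher and 4.66% lower, and the smallest adjusted p was 0.388. They were Rplp0, Rpl18, Rps19, Rpsa, Rps9, Rpl28, Rpl36, Rps12, Rps10 and Rpl36al, at log2 fold changes of 0.31 to 0.47.

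**Figure D2:**
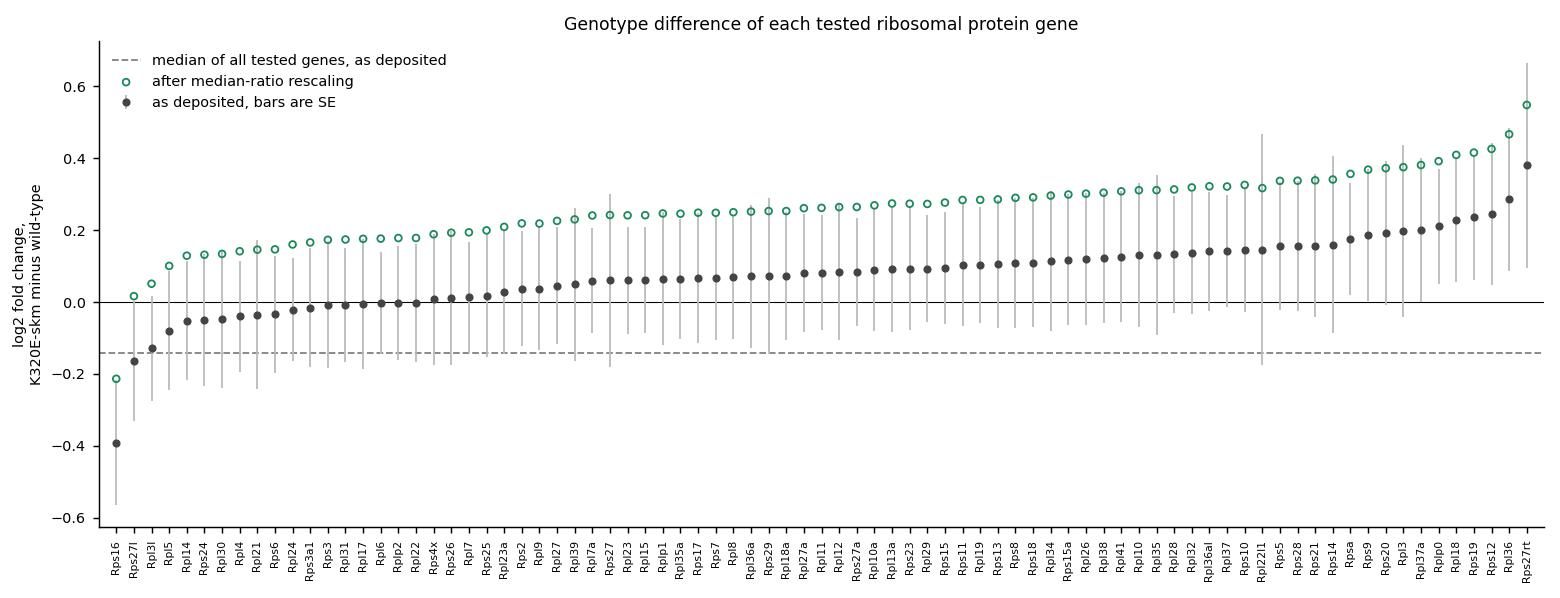
Log2 fold change of each tested member, K320E-skm minus wild-type, ordered by size; filled points with SE bars are values as deposited, open circles those after median-ratio rescaling, and the dashed line is the median of all tested genes at −0.14. The SE bars of most members reach 0 as deposited; after rescaling all members but Rps16 lie above 0.

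The median of the members was sensitive to single libraries. It was 0.00 without K320E-skm 1, with 43 of 81 members above 0, and 0.21 without K320E-skm 4, with 77 above 0. It was 0.02 without K320E-skm 2, 0.03 without wild-type 3 and 0.17 without wild-type 1. It was 0.09 without both K320E-skm 1 and wild-type 1, a choice made after the data were seen. No member passed in any of these fits.

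By role, the small subunit had a median log2 fold change of 0.10 as deposited (27 of 33 above 0), the large subunit 0.07 (34 of 45) and the stalk 0.06 (2 of 3), and after rescaling these were 0.28, 0.25 and 0.25. With each library left out in turn, the median as deposited ran from 0.03 to 0.23 for the small subunit and from −0.01, without K320E-skm 1, to 0.19 for the large subunit. The 10 tested members under 100 codons had a median of 0.13, all of them above 0, and the 71 longer ones 0.07. The 14 genes with the pyrimidine start were at 0.11 and the 47 tested genes whose window lacks it at 0.08. Hosts of small nucleolar RNA genes were at 0.06 and the other members at 0.09. None of the differences between these medians was tested.

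Rps16, a protein of the head of the small subunit, had the most negative value. Its level was 35.7, 42.2, 37.3 and 36.7 FPKM across K320E-skm 1 to 4 and 56.4, 36.4, 65.8 and 46.2 FPKM across wild-type 1 to 4. Of the wild-type libraries, 3 lay above every K320E-skm library, and wild-type 2 lay among them. Group means were 38.0 ± 2.88 and 51.2 ± 12.7 FPKM (SD, n = 4 each; exact two-sided permutation p = 0.114). The log2 fold change was −0.39 (SE 0.17, limma unadjusted p = 0.0494, adjusted p = 0.378). After rescaling it was −0.21 (SE 0.18, limma unadjusted p = 0.261). With each library left out in turn the value as deposited ran from −0.53 to −0.28. Rps16 lies on chromosome 7 (28350652 to 28353155, GRCm38). It was also the member with the smallest p for the interaction of genotype and sex label.

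Other members below 0 had small values. They were Rps27l at −0.16, Rpl3l at −0.13, Rpl5, which binds ribosomal RNA of the large subunit, at −0.08, and Rpl14 and Rps24 at −0.05. All 5 were above 0 after rescaling, at 0.02 for Rps27l, 0.05 for Rpl3l, 0.10 for Rpl5 and 0.13 for both Rpl14 and Rps24. Rps24, for instance, was at 355, 294, 293 and 255 FPKM in the K320E-skm group and at 341, 380, 263 and 262 FPKM in wild-type libraries, with the highest value in wild-type 2.

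At the upper end stood Rps27rt, Rpl36, Rps12, Rps19, Rpl18 and Rplp0, with log2 fold changes of 0.38, 0.29, 0.24, 0.24, 0.23 and 0.21. Rpl36, of the large subunit, was at 256, 244, 205 and 185 FPKM in the K320E-skm group and at 240, 127, 196 and 180 FPKM in wild-type libraries (SE 0.20). Rps12, of the small subunit, was at 366, 302, 281 and 251 FPKM against 331, 271, 216 and 204 FPKM (SE 0.20). Rps19, whose loss in people causes an inherited anaemia, was at 129, 105, 107 and 87.5 FPKM against 118, 78.4, 86.9 and 81.6 FPKM (SE 0.17). In each of the 3 genes K320E-skm 1 was the highest library, and the groups overlapped. Without wild-type 2, where it was lowest, Rpl36 was at 0.13. Rpl18 was at 163, 166, 139 and 125 FPKM against 162, 107, 118 and 121 FPKM, so that wild-type 1 alone lay among the K320E-skm values (SE 0.17). The limma adjusted p of these members were 0.528 to 0.583.

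The stalk consists of Rplp0, its base, and Rplp1 and Rplp2, the acidic proteins at its tip. Rplp0 was at 295, 314, 245 and 256 FPKM in the K320E-skm group and at 292, 216, 223 and 231 FPKM in wild-type libraries, and all but wild-type 1 of the latter lay below all of the former. Group means were 278 ± 32.2 and 240 ± 35 FPKM (SD, n = 4 each; exact permutation p = 0.171), a log2 fold change of 0.21 (SE 0.16). Rplp1 was at 0.06 (SE 0.19), and Rplp2 was at 0.00 (SE 0.16), with 179, 185, 148 and 168 FPKM against 205, 182, 152 and 146 FPKM. Rpsa, a protein of the small subunit also known as the laminin receptor precursor, was at 134, 130, 117 and 109 FPKM against 120, 126, 94.0 and 95.9 FPKM. Wild-type 1 and 2 lay among the K320E-skm values and wild-type 3 and 4 below them (log2 fold change 0.18, SE 0.16).

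Rpl3 sits close to the site of peptide bond formation. The next lines show why both genes can be measured apart: they give the first 60 coding bases of Rpl3 and of Rpl3l from GENCODE M21 (GRCm38), with capitals where Rpl3l differs.
Rpl3: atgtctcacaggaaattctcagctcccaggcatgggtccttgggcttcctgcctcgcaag
Rpl3l: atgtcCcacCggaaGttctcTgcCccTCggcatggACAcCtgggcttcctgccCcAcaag

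Over the whole coding sequence 74.4% of the aligned bases were identical, and no shared run was longer than 22 bases. Rpl3l lies on chromosome 17 (24727820 to 24736143, plus strand) and Rpl3 on chromosome 15 (80077791 to 80091868, minus strand; both GRCm38).

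The muscle paralog was the more abundant of the pair in all 8 libraries. Rpl3l was at 73.6, 89.3, 69.5 and 79.1 FPKM across K320E-skm 1 to 4 and at 93.2, 71.0, 94.8 and 82.6 FPKM across wild-type 1 to 4. Rpl3 was at 36.4, 36.5, 29.7 and 23.0 FPKM in the K320E-skm group and at 39.3, 29.9, 22.4 and 19.3 FPKM in wild-type libraries. Rpl3l varied little and Rpl3 more, and neither separated the genotypes (exact permutation p = 0.286 and 0.514, n = 4 each). Together they held 99.2 to 126 FPKM in the K320E-skm group and 101 to 133 FPKM in wild-type libraries.

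Their ratio does not depend on how libraries are scaled. Rpl3l was 2.02, 2.45, 2.34 and 3.44 times as abundant as Rpl3 across K320E-skm 1 to 4 and 2.37, 2.37, 4.24 and 4.27 times across wild-type 1 to 4. Wild-type 3 and 4 stood highest, K320E-skm 4 next, and the other 5 libraries close together. The mean log2 ratio was 1.33 ± 0.325 in the K320E-skm group and 1.67 ± 0.487 in wild-type muscle (SD, n = 4 each), a difference of −0.34 with an exact two-sided permutation p of 0.257. Without wild-type 4 the difference was −0.19, and without wild-type 3 it was −0.20.

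**Figure D3:**
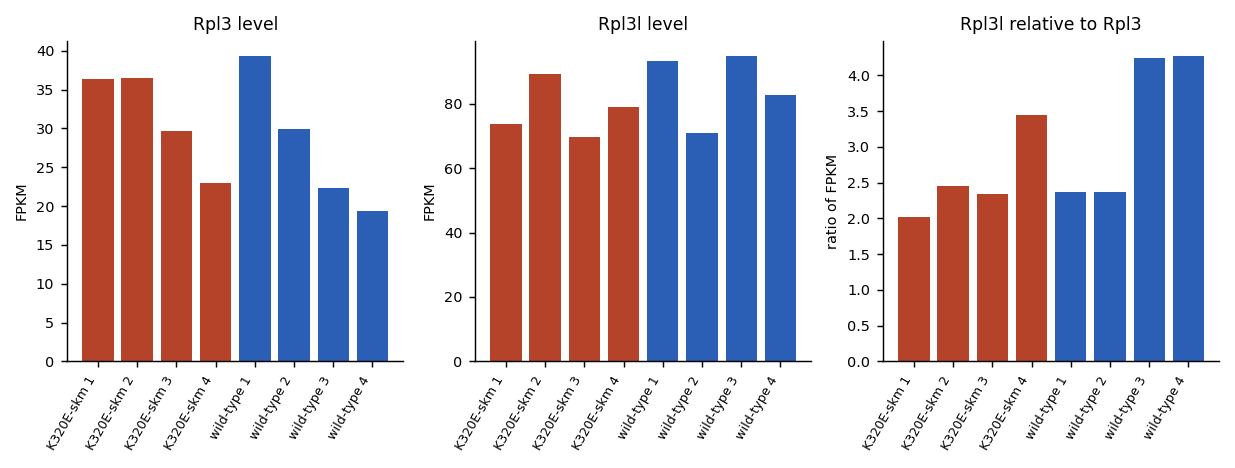
Bars give the FPKM of Rpl3 (left) and Rpl3l (middle) and the ratio of Rpl3l to Rpl3 (right) in each of the 8 libraries, K320E-skm in red and wild-type in blue. The ratio is 2.02 to 2.45 in 5 libraries and 3.44 to 4.27 in K320E-skm 4, wild-type 3 and wild-type 4, while Rpl3l alone stays between 69.5 and 94.8 FPKM.

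The summed level of 10 macrophage markers was lowest where this ratio was highest. It was 149, 122, 104 and 51.8 FPKM across K320E-skm 1 to 4 and 144, 106, 48.2 and 48.9 FPKM across wild-type 1 to 4, with none of the 10 at 0. The 3 libraries with the lowest sums were those with the highest Rpl3l to Rpl3 ratio. None of the other marker lists had its 3 lowest sums in these libraries. Fibroblast sums, for instance, were lowest in wild-type 3, at 314 FPKM, and next in K320E-skm 3, at 332 FPKM. The part of other cells in the ratio was not tested. In bulk muscle, fewer cells of a type and less RNA per cell cannot be told apart. Eef1a1 and Eef1a2, the general and the muscle and nerve form of the elongation factor that brings transfer RNA to the ribosome, gave a ratio of Eef1a2 to Eef1a1 of 0.70, 1.14, 1.00 and 1.42 in the K320E-skm group and of 1.13, 0.79, 1.38 and 1.51 in wild-type libraries. The same 3 libraries had the highest values.

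Among the other paralogs, Rps27rt is a copy whose coding sequence is identical to that of Rps27 over all 252 bases, so the division of reads between the pair is uncertain. Their first 60 coding bases, beside those of Rps27l, show this; capitals mark where Rps27l differs from Rps27.
Rps27: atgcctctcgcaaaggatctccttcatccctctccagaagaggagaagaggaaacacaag
Rps27rt: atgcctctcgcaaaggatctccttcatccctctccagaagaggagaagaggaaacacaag
Rps27l: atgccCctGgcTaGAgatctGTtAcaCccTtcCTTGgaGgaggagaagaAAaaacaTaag

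Rps27 was at 588, 424, 351 and 300 FPKM in the K320E-skm group and at 563, 280, 422 and 334 FPKM in wild-type libraries, a log2 fold change of 0.06 (SE 0.24). Rps27rt was at 19, 11.6, 10.9 and 10.9 FPKM against 16.5, 3.96, 11.6 and 10.5 FPKM, and its log2 fold change of 0.38 (SE 0.28) was 0.07 without wild-type 2, its lowest library. Both copies were highest in K320E-skm 1 and lowest in wild-type 2. Rps27l, a paralog known as a p53 target, was at 84.0, 92.5, 78.2 and 74.0 FPKM against 122, 83.5, 82.3 and 84.8 FPKM. Its log2 fold change of −0.16 (SE 0.17) was −0.02 without wild-type 1, which stood well above the other libraries.

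Rpl22l1 is a paralog of Rpl22, and its coding sequence is 70.2% identical. Its level was 25.1, 20.1, 13.7 and 11.1 FPKM in the K320E-skm group and 21.6, 7.0, 22 and 14.7 FPKM in wild-type libraries, a log2 fold change of 0.15 (SE 0.32) that was −0.15 without wild-type 2 and −0.06 without K320E-skm 2. Its ratio to Rpl22, in FPKM, was 0.0501 to 0.19 over the 8 libraries. Rpl36al, 87.7% identical to Rpl36a in its coding sequence, was at 107, 99.1, 83.6 and 78.9 FPKM against 101, 69.6, 77.3 and 86.1 FPKM. It shares exonic sequence with Gm49383. It was nearly as abundant as Rpl36a, at 0.74 to 0.99 times its level.

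Members tended to be high, or low, in the same libraries. Their summed FPKM was 16001, 13791, 12252 and 11242 across K320E-skm 1 to 4 and 15409, 11629, 12206 and 11367 across wild-type 1 to 4. K320E-skm 1 and wild-type 1 were the highest of their genotype, and the groups overlapped. Every tested member was above its own mean over the 8 libraries in wild-type 1 and 77 of 81 were in K320E-skm 1, against 0 in K320E-skm 4 and 3 in wild-type 4. High values in wild-type 1 were not particular to the members. The median deviation from the gene's own mean there, on the log2 scale, was 0.28 over all tested genes, beside 0.26 over the members. For K320E-skm 1 these medians were −0.11 and 0.30. K320E-skm 1 was the highest library for 44 members and wild-type 1 for 22, and wild-type 2 was the lowest for 31. The macrophage marker sums given above were likewise highest in K320E-skm 1 and wild-type 1. Sums of 8 fibroblast markers were 332 to 536 FPKM in K320E-skm libraries and 314 to 885 FPKM in wild-type libraries. The highest value of each genotype was again in its first library, as for nerve and Schwann cell markers. The other lists differed. Endothelial markers were highest in K320E-skm 2 and wild-type 1, and blood and lymphoid markers in K320E-skm 3 and wild-type 1. Satellite cell markers were highest in K320E-skm 2 and wild-type 2. Adipocyte markers were highest in K320E-skm 1 and wild-type 2. Mature fibre sums were too, but they are not directly comparable, since Myh4 was listed at 0 in other libraries of both genotypes. The marker sums were not corrected for the higher median of all tested genes in wild-type 1. The part of these cells in the members' levels was not tested.

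As a share of all FPKM, the members held 1.87, 1.75, 1.51 and 1.54% in the K320E-skm group and 1.85, 1.55, 1.42 and 1.39% in wild-type libraries. Group means were 1.66 ± 0.173% and 1.56 ± 0.209% (SD, n = 4 each), a ratio of 1.07. Of the FPKM of protein-coding nuclear genes alone, they held 7.59, 6.57, 6.34 and 5.31% against 5.98, 5.14, 5.51 and 5.0%, with means of 6.45 ± 0.932% and 5.41 ± 0.440% and a ratio of 1.19. K320E-skm 1, 2 and 3 lay above all wild-type libraries on that scale, and K320E-skm 4 lay among them. The first denominator includes the mitochondrial transcripts and the second leaves them out.

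**Figure D4:**
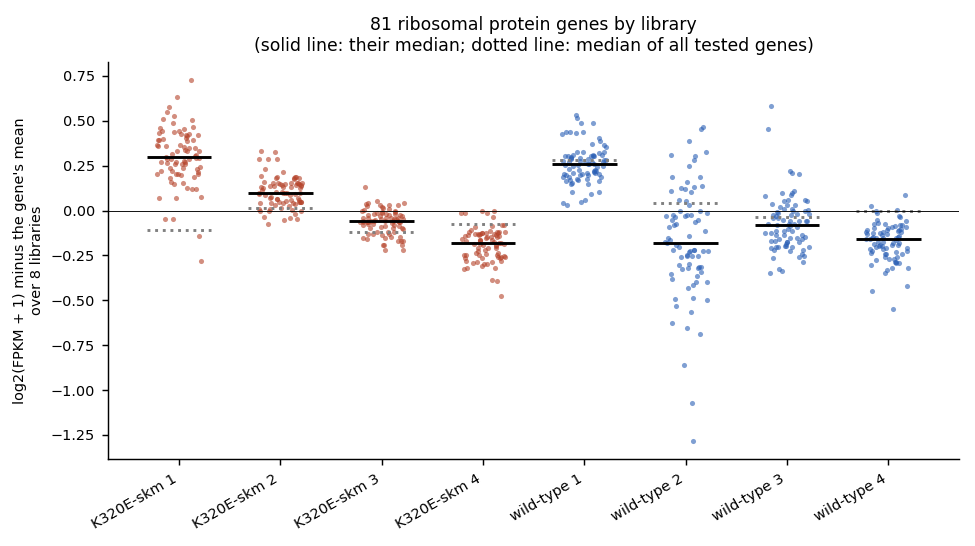
Each point is 1 of 81 members, plotted as log2(FPKM + 1) minus the mean of that gene over the 8 libraries; solid lines are medians of the members and dotted lines medians of all tested genes. Members as a group are high in K320E-skm 1 and wild-type 1; in wild-type 1 all tested genes are as high, in K320E-skm 1 they are not; and wild-type 2 has the widest scatter.

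Relative to the median of all tested genes in the same library, the members stood 0.41, 0.08, 0.06 and −0.10 from their mean across K320E-skm 1 to 4 and −0.02, −0.22, −0.04 and −0.16 across wild-type 1 to 4, on the log2 scale. K320E-skm 1 stood furthest up and wild-type 2 furthest down. Within a library the members did not all keep step. The SD of their deviations was 0.31 in wild-type 2 and 0.07 to 0.16 in the other 7 libraries. In wild-type 2, Rps14, of the small subunit, was at 85.5 FPKM against 131 to 225 FPKM in the other 7, and Rpl35, of the large subunit, at 146 FPKM against 77.3 to 140 FPKM. Both genes were chosen for their values. Across the 81 members, Spearman's rho of this deviation with coding length was 0.33 in wild-type 2, −0.51 in K320E-skm 1 and between −0.33 and 0.27 in the others, given as a description since genes are not independent replicates.

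The second comparison was of the sex labels. The interaction of genotype and sex label called 0 members by limma, where 0.019% of all tested genes were called, and at an unadjusted p under 0.05 it had 1 member, against 2.27% of all genes. That member was Rps16, at −0.69 on the log2 scale (SE 0.29, limma adjusted p = 0.999), followed by Rpl22l1 at −1.01 (SE 0.58) and Rpl36 at −0.56 (SE 0.38). Male minus female, as labelled, the members had a median of 0.13 with 73 of 81 above 0, against 0.03 over all genes. Rps27rt, at 0.65, was the 1 member with an unadjusted limma p under 0.05, against 2.7% of all genes. No member passed by adjusted p, where 0 of all genes did.

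Xist and the Y-linked transcripts go against the label of K320E-skm 4 that entered these values. With that library entered as female, a choice made after the data were seen, the median of male minus female was 0.30, with 79 of 81 above 0. At an unadjusted limma p under 0.05 there were 32 members, all higher in males, against 6.25% of all genes. No member passed after adjustment, against 0.0475% of all genes (smallest adjusted p = 0.405, for Rps27). Rpl22l1 was at 0.91, Rps27rt at 0.87, Rps14 at 0.71, Rps27 at 0.70 and Rps29 at 0.64. The males are then K320E-skm 1, wild-type 1 and wild-type 3, so this contrast has 1 K320E-skm male, and the libraries with the highest sums in both genotypes stand on 1 side of it. The genotype median was then 0.16, with 72 of 81 members above 0, and 0 members were called. The interaction then had 1 member at an unadjusted limma p under 0.05, again Rps16 at −0.67, against 2.5% of all genes.

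The other genes of the translation apparatus were read from lists chosen by function. Of proteins that ribosomes also hold, Rack1, a scaffold on the small subunit, was at a log2 fold change of 0.13 and Fau, a ubiquitin-like protein fused to a small subunit protein, at 0.02. The 9 elongation factors had a median of 0.01, with Eef1a1 at 0.19, Eef2 at 0.12 and Eef2k, the kinase that inhibits Eef2, at −0.16. The 28 initiation factors had a median of −0.08 as deposited, with 8 above 0 and 20 below (28.6% above 0, against 20.5% of all tested genes). Eif3c, a subunit of the factor that holds the small subunit, was at 0.37 (36.9 ± 6.05 against 28.1 ± 2.91 FPKM, SD, n = 4 each), Eif4g2 at −0.43 and Eif5 at −0.24.

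The 50 genes of ribosome assembly had a median of −0.08 as deposited, with 9 above 0 (18%), and among them Ubtf, a transcription factor for ribosomal RNA genes, was at −0.26, Ltv1 at −0.31 and Taf1d at −0.27. The 24 tested genes of translation control had a median of −0.10 as deposited, with 2 above 0 (8.33%). These 2 were Eif4ebp1, a repressor of translation under mTOR, at 0.66 (22.5 ± 7.01 against 13.8 ± 3.71 FPKM, SD, n = 4 each), and Myc, a transcription factor that drives genes of ribosome assembly, at 0.56 (2.54 ± 0.816 against 1.40 ± 0.598 FPKM). Larp1b, a relative of Larp1, was at −0.32. Neither Rack1, Fau nor any gene of these 4 lists passed over all genes tested, and the smallest limma adjusted p of each list were 0.310 for Myc in translation control, 0.337 for Eif3c in initiation, 0.423 for Ubtf in assembly and 0.680 for Eef2k in elongation. At an unadjusted limma p under 0.05 as deposited the lists held 3 genes higher (Eif3c, Eif4ebp1 and Myc) and 2 lower (Eif4g2 and Larp1b), where 1.12% of all tested genes were higher and 12% lower. After median-ratio rescaling such genes were all higher, with 1 elongation factor, 4 initiation factors, 5 assembly genes and 2 control genes, against 5.19% of all genes higher and 4.66% lower.

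The medians of the initiation, assembly and control lists changed sign with the scaling. After rescaling the medians were 0.19 for elongation (9 of 9 above 0), 0.09 for initiation (19 of 28), 0.08 for assembly (36 of 50) and 0.05 for control (17 of 24), where 50.6% of all tested genes were above 0.

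The proteins of the mitochondrial ribosome, a separate particle built from nuclear genes, were at a median of −0.06 over 78 genes on the log2 scale, with 26 above 0, and 0.11 after rescaling, with 68 above 0. The cytosolic members were at 0.08 and 0.26 on the same scales. The difference between the families was not tested.

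**Figure D5:**
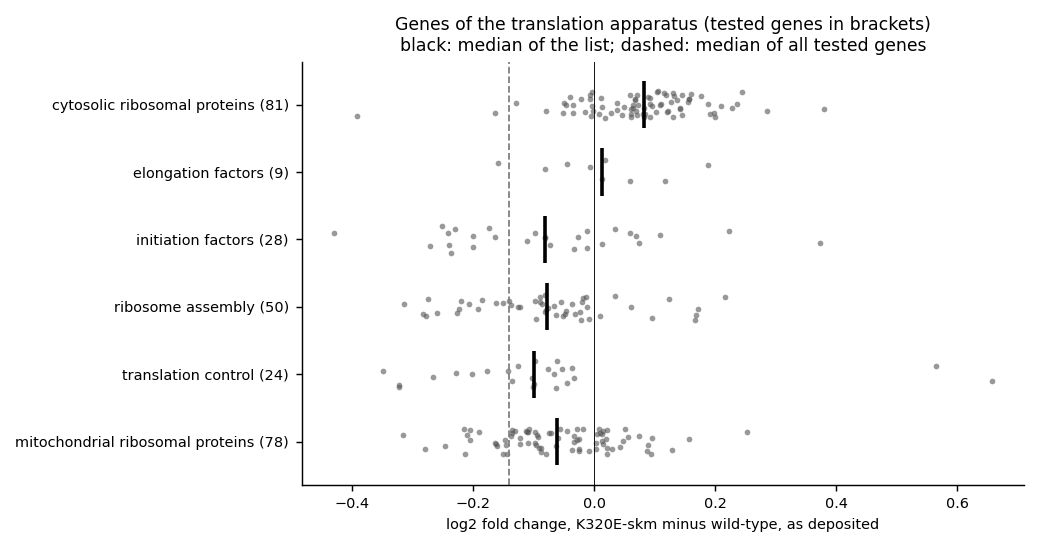
Each point is a tested gene, placed by its log2 fold change, K320E-skm minus wild-type, as deposited; black bars are list medians and the dashed line is the median of all tested genes at −0.14. The cytosolic ribosomal proteins cluster around 0.08, the initiation, assembly and control lists around −0.08 to −0.10 as deposited (above 0 after rescaling), and Eif4ebp1 and Myc are the 2 points above 0.5.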

How the data were processed

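The authors deposited FPKM for 48328 genes in 8 libraries. Their tools were CASAVA, TopHat2 (2.0.10) and, for build mm10, Cufflinks (2.1.1), per the submitters' processing notes. No source used here gives the annotation release or strand setting, and absolute depth is unknown (relative depths were 1.00 to 1.31). Symbols and coordinates came from GENCODE M21, which matched 47864 IDs; 464 had no match. Members and lists were chosen with earlier results of these data known.

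Genotype and sex came from the labels. Genes at 1 FPKM or more in at least 4 libraries (10521) entered a two-sided limma fit (3.58.1, under R 4.3.3) of log2(FPKM + 1) on sex and genotype, using an empirical Bayes trend, with Benjamini-Hochberg adjustment over all tested genes and a threshold of 0.05. Fold changes are on that scale, which understates changes of low genes. Single values were compared by exact permutation over 70 assignments, whose smallest p is 0.0286. The fit was tested on simulated data. Other work used Python 3.11.15, pandas 2.3.3, matplotlib 3.10.9 and Biopython 1.88.

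Named genes were set by a rule: paralogs with their parents, the stalk and Rpsa, the 3 highest and 3 lowest means, the 6 most positive and 6 most negative fold changes, members not tested, the 3 smallest interaction p, and 3 genes of each other list by smallest p, with Fau, Rack1, Eef1a1 and Eef1a2. Alternatives were the replicate number as a block, 3 rescalings (median-ratio, quantile, protein-coding nuclear), leaving out the filter or raising it to 5 FPKM, leaving out the sex term, a pseudocount of 0.1, robust empirical Bayes, array weights, protein-coding genes only and leaving out each library. Added after seeing the data were K320E-skm 4 entered as female and leaving out K320E-skm 1 with wild-type 1. All columns were mapped. A gene that the rule names is not reported here.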

Additional observations from a re-analysis of the deposited data

Results flagged for a closer look

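Of 58 sets of 4 libraries checked, 2 had 1 library far from the others of its genotype, where chance alone flags about 1 set in 20. Rps27l was at 122 FPKM in wild-type 1, against 82.3 to 84.8 FPKM in the other wild-type libraries. Rps27rt was at 19 FPKM in K320E-skm 1, against 10.9 to 11.6 FPKM in the other K320E-skm libraries, and its reads cannot be told apart from those of Rps27 over the coding sequence.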

How the results depend on the processing

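No member passed the threshold of limma in any setting run; the smallest adjusted p of a member was 0.174, with array weights. With a replicate block and no sex term, 0 members passed and the members' median stayed at 0.08; for Rpl3l relative to Rpl3 the block gave −0.34 (exact sign-flip permutation p = 0.250). Libraries with the same number correlated at 0.16, 0.02, 0.04 and 0.04 in their deviations over all tested genes, so the numbers were not taken as pairs. Over the members alone the correlations for numbers 1 to 4 were 0.42, −0.11, −0.39 and −0.099. The ratio of summed shares was 1.07 over all rows, 1.19 over protein-coding nuclear rows and 1.03 to 1.14 with each library left out. Members' medians ran from 0.00 to 0.21, those of the large subunit from −0.0052 to 0.19, and the Rpl3l difference from −0.49 to −0.19 in the same way. Small negative fold changes turned positive: by median-ratio rescaling Rps24 0.13, Rpl14 0.13, Rpl5 0.10, Rps27l 0.016 and Rpl3l 0.051; by protein-coding nuclear rescaling Rps24 0.12, Rpl14 0.12, Rpl5 0.094, Rps27l 0.0092 and Rpl3l 0.044; by quantile normalization Rpl14 0.049 and Rpl5 0.0088; with array weights Rps24 0.11, Rpl14 0.079 and Rpl5 0.024. With each library left out, values crossed 0 for Rplp1 (−0.026 to 0.22), Rps27 (−0.079 to 0.31), Rps24 (−0.16 to 0.067), Rpl14 (−0.16 to 0.044), Rpl5 (−0.16 to 0.031) and Rpl22l1 (−0.15 to 0.47). The cause of these changes was not tested. With no read counts, precision rests on the spread of 4 libraries per genotype; counting error has no interval here.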
